A study of Mus musculus with 6 samples.

Results

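Cytosolic ribosomal protein genes were compared between P4 testes labelled Dis3l2 cKO (3 samples) and Dis3l2 WT (3 samples), all from B6D2F1 mice and taken on postnatal day 4. The genes were chosen by a naming rule. It took rows of the count table whose identifier belongs to a mouse protein-coding gene with a standard small subunit (Rps) or large subunit (Rpl) name. A few such genes, Rps3a1 among them, have names outside the rule. The rule gave 83 of the 54232 genes in the table, 31 of the small and 52 of the large subunit. All 83 had enough counts to be tested. The study sequenced RNA of testis to find genes that differ between cKO and control. The product of Dis3l2 is a 3′ to 5′ RNase for transcripts that end in added uridines. Neither the driver of the recombinase nor the excised exons is stated in the labels, nor do they say whether each sample is a different animal. The p-values therefore measure only the spread between these samples, which may be technical.

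Ribosomal proteins are built in nearly equal numbers into every ribosome, and their mRNAs are among the most abundant and evenly expressed in the cell. Most of these mRNAs begin with a 5′ terminal oligopyrimidine (TOP) tract, through which growth signals set their translation. Mammalian genomes also hold many intronless pseudogene copies of these genes, and a few functional paralogues that are used in particular tissues, among them Rpl10l and Rpl39l in male germ cells and Rpl3l in heart and skeletal muscle.

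The pairs on which the comparison of paralogues turns are Rpl39l with Rpl39 and Rpl10l with Rpl10. Their coding sequences are shown to make visible how far a read of the one can be told from a read of the other. Rpl39l lies on chromosome 16 (10170226 to 10174911, plus strand) and Rpl39 on the X chromosome (37082520 to 37085402, minus strand), both on GRCm38. Their coding sequences have the same length of 156 bases and differ at 23 of them, an identity of 85.3%. The sequences come from GENCODE M21 transcripts, run 5′ to 3′, and capitals mark the bases that differ within a pair.
Rpl39l: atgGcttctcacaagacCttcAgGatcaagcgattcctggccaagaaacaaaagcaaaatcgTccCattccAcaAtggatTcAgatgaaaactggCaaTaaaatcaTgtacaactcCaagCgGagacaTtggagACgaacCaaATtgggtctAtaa
Rpl39: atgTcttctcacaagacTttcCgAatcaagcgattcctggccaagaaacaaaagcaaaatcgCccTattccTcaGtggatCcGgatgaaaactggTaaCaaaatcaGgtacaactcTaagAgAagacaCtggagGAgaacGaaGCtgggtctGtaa
Rpl10l lies on chromosome 12 (66283379 to 66284401, minus strand) and Rpl10 on the X chromosome (74270812 to 74273135, plus strand). Their coding sequences of 645 bases differ at 98 positions, an identity of 84.8%, and bases 1 to 150 hold 25 of these differences.
Rpl10l: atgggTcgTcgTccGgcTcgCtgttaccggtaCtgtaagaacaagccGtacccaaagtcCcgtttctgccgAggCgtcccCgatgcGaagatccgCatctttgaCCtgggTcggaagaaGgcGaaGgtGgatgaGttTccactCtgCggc
Rpl10: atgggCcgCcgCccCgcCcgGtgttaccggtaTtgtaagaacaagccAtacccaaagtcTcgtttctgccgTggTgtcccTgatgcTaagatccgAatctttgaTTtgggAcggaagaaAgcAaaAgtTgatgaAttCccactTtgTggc
No stretch of 50 bases of the Rpl39l transcript occurs in a transcript of another gene, and for Rpl10l 7.60% of such stretches do. For the partners the share is 16.5% in Rpl39 and 92.1% in Rpl10. Within the coding sequence it is 84.1% in Rpl39 and 100% in Rpl10. Reads that fit several places were not counted, so a ratio of paralogue to partner compares counted reads, not transcript levels.

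As a group, the ribosomal protein genes held shares of all counts that differed between genotypes by less than the spread of the samples. They made up 1.88%, 1.93% and 1.91% of the counts in cKO libraries, against 1.84%, 1.91% and 1.95% in WT libraries, and the groups overlapped. The small subunit genes took 0.677% ± 0.0134 of the counts in cKO and 0.668% ± 0.0213 in WT (SD, n = 3 each), and the large subunit genes 1.23% ± 0.00802 in cKO and 1.23% ± 0.0315 in WT. The ratio of small to large subunit counts was 0.551 ± 0.00783 in cKO and 0.542 ± 0.00396 in WT (SD, n = 3 each), again with overlapping libraries. Library totals ranged from 26126694 to 35390560 counts in cKO and from 35750784 to 43265614 in WT. In bulk tissue, fewer cells of a type and less RNA per cell cannot be told apart.

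Gene by gene, 4 members were higher and 6 were lower in cKO, and 73 did not pass the test (edgeR quasi-likelihood test, Benjamini-Hochberg adjusted p under 0.05 over the 20153 genes tested). The 10 called members were 12% of the members, while 8.34% of all genes tested were called. By direction, 4.82% of the members were higher and 7.23% lower, against a background of 3.4% higher and 4.94% lower. The members' libraries did not overlap between groups in 13 genes on the higher side and 11 on the lower side (15.7% and 13.3%), close to the 13.6% and 14.6% of all genes tested. Of the other 1078 protein-coding genes that were at least as abundant as the median member, 12.9% were called, 8.53% higher and 4.36% lower. In 23.6% of those 1078 the groups did not overlap on the higher side, and in 15.3% on the lower side. Beside genes of such abundance, fewer of the members were thus higher and more were lower. The numbers of called members depended on single libraries. Without cKO replicate 1, 14 members were higher and 9 lower (27.7%, beside 16.4% of all genes tested). Without cKO replicate 2, 1 was higher and 5 lower (7.23%, beside 3.81%). Without WT replicate 1, 2 were higher and 4 lower (7.23%, beside 3.64%), and without WT replicate 2, 1 was higher and 4 lower (6.02%, beside 2.97%).

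Most members differed little between genotypes. The median log2 fold change (cKO over WT) came to 0.05, with quartiles of -0.06 and 0.13, beside a median of 0.01 over all genes tested. The change was within 0.2 in either direction for 65 of the 83 members, 51 lay above 0 and 32 below. The small subunit (median 0.05) spanned -0.38 to 0.19, with 0 genes higher and 2 lower (6.45%, beside 8.34% of all genes tested). An unadjusted edgeR p under 0.05 was reached by 28 of the 83 members and by 4699 of the 20153 genes tested. Among the other 1078 protein-coding genes at least as abundant as the median member, 371 reached it. The large subunit had the same median of 0.05 but a wider span, from -4.04 to 0.51, with 4 genes higher and 4 lower. Those called are 15.4% of the large subunit genes, beside the same 8.34% of all genes tested. A test of the difference between subunits was not run.

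**Figure D1:**
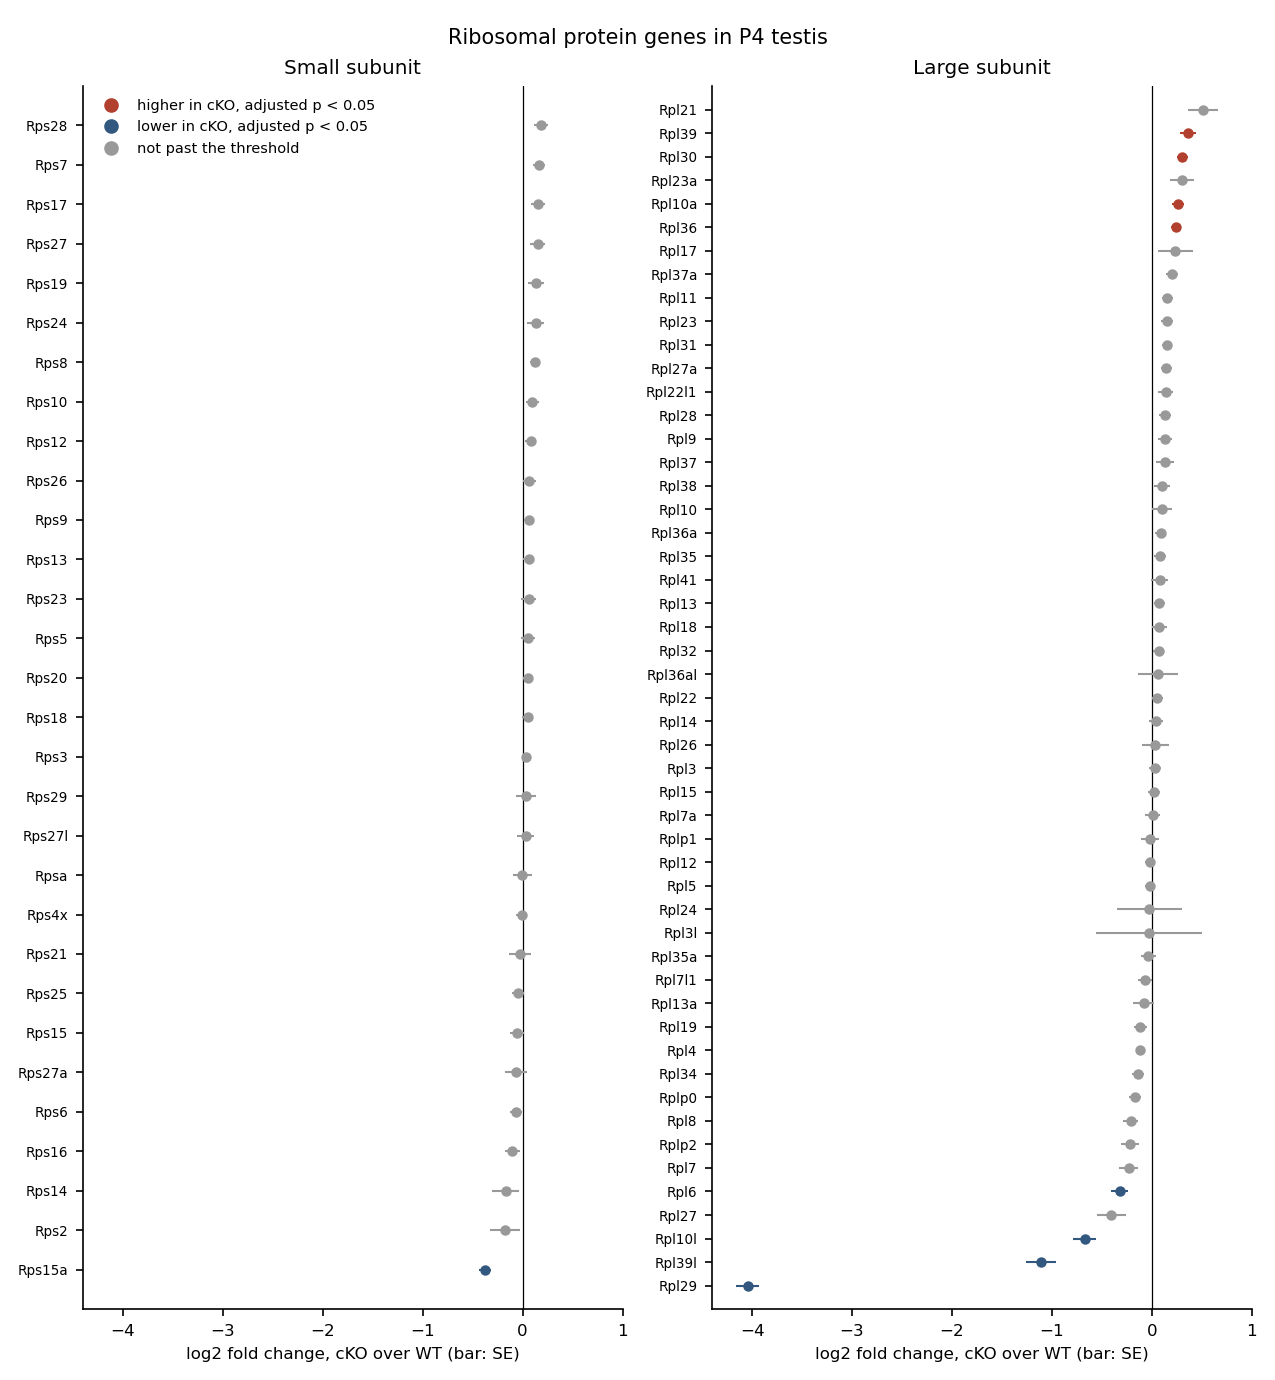
Log2 fold change of cKO over WT for 81 of the 83 ribosomal protein genes (x axis), small subunit on the left and large subunit on the right, one gene per row. Points are fitted values with their SE as bars, coloured by whether they passed the adjusted p threshold. All genes shown except Rpl29, Rpl39l, Rpl10l and Rpl21 sit within 0.5 of 0, and Rpl29 at -4.04 stands far from the others.

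Rpl29 was the exception within the family. It encodes a small, highly basic large subunit protein, also known for binding heparan sulfate, and mice without it are viable but small. Rpl29 (chromosome 9, 106429454 to 106431568, GRCm38) had 2.13, 3.07 and 2.92 CPM (counts relative to a library size scaled by the TMM method) in the 3 cKO libraries, against 47.5, 44.8 and 43.6 CPM in the 3 WT libraries. The groups were far apart, and within each group the libraries were close together. The log2 fold change was -4.04 (SE 0.117, edgeR quasi-likelihood test with Benjamini-Hochberg adjusted p = 1.53e-09), to 0.0606 of the WT level, and no other of the 10030 protein-coding genes above 10 CPM had a change of this size. The smallest count behind these values was 56 reads. Leaving out each library in turn gave values between -4.14 and -3.92.

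The genes around Rpl29 differed in both directions. Of the 33 tested genes within 1 Mb, 3 were higher and 2 lower in cKO, which is 15.2% beside 8.34% of all genes tested. Their log2 fold changes ran from -0.71 to 1.03 with a median of 0.00186. Dusp7, a phosphatase of MAP kinases, had 47.0, 52.4 and 60.6 CPM in cKO and 55.0, 50.6 and 50.8 CPM in WT. Acy1, an enzyme of amino acid salvage, had 10.5, 14.0 and 14.5 CPM in cKO and 9.88, 9.37 and 11.6 CPM in WT. Neither of these neighbours passed the test, with log2 fold changes of 0.03 for Dusp7 (adjusted p = 0.868, edgeR) and 0.35 for Acy1 (adjusted p = 0.145, edgeR).

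Rpl29 also has many copies, which bears on what its count can hold. Of all 50-base stretches of its coding sequence 90.3% occur in a transcript of another gene, and 81 annotated pseudogenes share at least 1 of them. A read that fits several places equally well was not counted, so the Rpl29 count rests on the reads that could be placed once. The 78 genes of the table that share coding stretches with Rpl29 held together 54.3, 54.7 and 55.6 plain CPM (counts over the unscaled library total) in cKO, against 51.3, 58.1 and 57.3 in WT. Their sum thus overlapped between genotypes while the parent gene's did not. With parent and copies added up, the total was 56.4, 57.7 and 58.5 in cKO against 99.2, 103 and 101 in WT, a log2 ratio of -0.81. Among the single copies that passed the test, the processed pseudogene Gm8210 was higher (9.80 ± 2.86 CPM in cKO, 4.88 ± 0.777 in WT, SD, n = 3 each, log2 fold change 1.01, edgeR adjusted p = 0.00891). Gm13213 was lower, at 0.153 ± 0.165 CPM in cKO and 0.945 ± 0.0456 in WT (log2 fold change -2.71, edgeR adjusted p = 0.0142). Both copies were picked after their values were seen, and both are far below the parent gene's WT level.

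The paralogues with a testis-specific use were lower as well. Rpl39l, the variant of the exit tunnel protein Rpl39 that male mice need for normal sperm formation, had 3.54, 3.65 and 3.32 CPM in cKO, against 6.54, 7.25 and 8.90 CPM in WT. All cKO libraries lay below all WT libraries, and the log2 fold change was -1.11 (SE 0.152, edgeR adjusted p = 0.000894). Its X-linked partner Rpl39 moved the other way, with 149.7, 155 and 161 CPM in cKO and 104, 124 and 133 CPM in WT. The rise of 0.37 on the log2 scale (SE 0.0785) passed the test (edgeR adjusted p = 0.0135), without overlap between groups, but not without cKO replicate 2 (adjusted p = 0.0614) or WT replicate 2 (adjusted p = 0.0635).

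Rpl10l, an intronless relative of the X-linked Rpl10 that stands in for it in mouse meiosis, had 6.13, 6.84 and 6.79 CPM in cKO, against 10.4, 11.5 and 9.62 CPM in WT. The groups did not overlap, and the log2 fold change was -0.67 (SE 0.117, edgeR adjusted p = 0.00411). Rpl10, which joins the large subunit at a late step of its maturation, had 114, 135 and 159.9 CPM in cKO and 120.4, 136 and 125 CPM in WT. Its groups overlapped and it was not called (log2 fold change 0.10, edgeR adjusted p = 0.607).

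**Figure D2:**
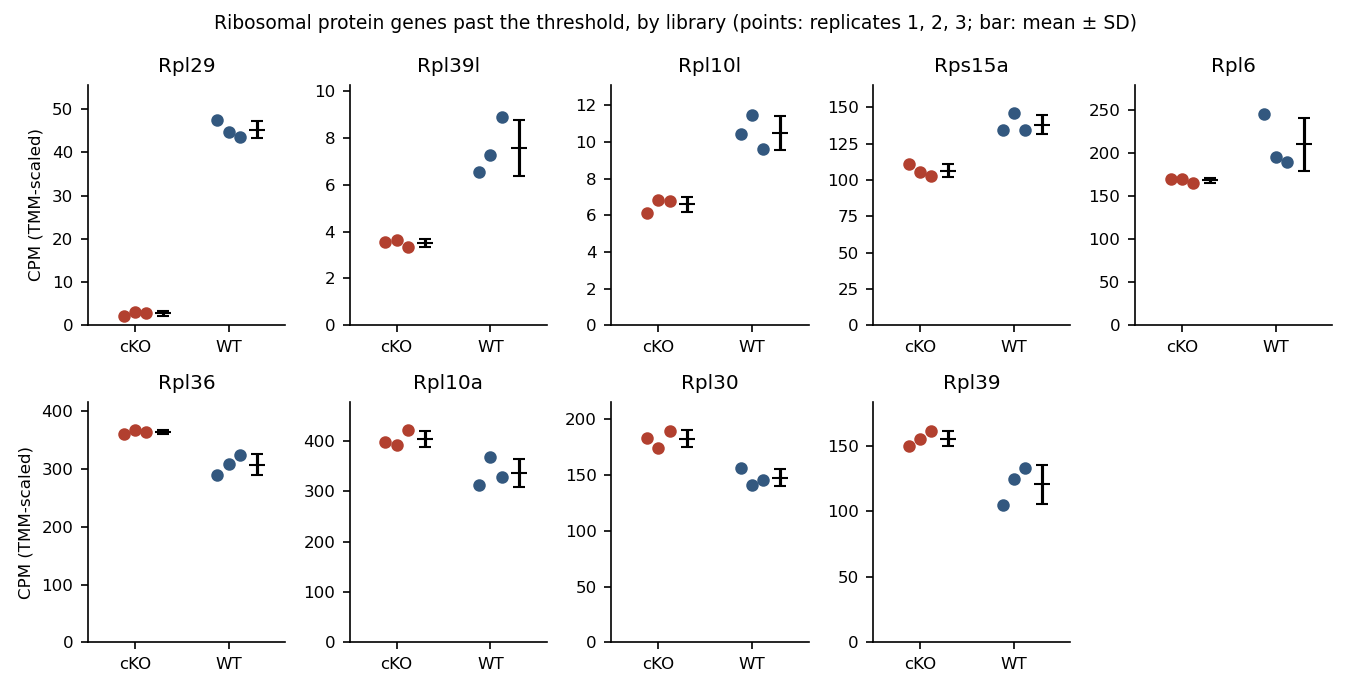
TMM-scaled CPM (y axes, each from 0) of 9 of the 10 ribosomal protein genes past the threshold, cKO left of WT. Points are replicates 1, 2 and 3 from left to right and bars are mean ± SD. Rpl29, Rpl39l, Rpl10l, Rps15a and Rpl6 lie lower in cKO, and Rpl36, Rpl10a, Rpl30 and Rpl39 lie higher, with no overlap between groups in any panel.

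A ratio of paralogue to partner within a library does not depend on how libraries are scaled. The log2 ratio of Rpl39l to Rpl39 was -5.37, -5.39 and -5.57 in cKO, against -3.98, -4.09 and -3.89 in WT, a difference of -1.45. For Rpl10l to Rpl10 it was -4.20, -4.29 and -4.55 in cKO, against -3.52, -3.56 and -3.70 in WT, a difference of -0.75. For both differences a two-sided exact permutation test gave p = 0.1, the lowest value possible with 3 samples a group, and 0.2 after Benjamini-Hochberg adjustment over the 8 pairs.

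The ratio of Rps4l to Rps4x was lower in cKO as well. Rps4l is an intronless relative of Rps4x, which encodes an X-linked protein of the small subunit. The annotation types it as a transcribed processed pseudogene, so it is not counted among the 83. Rps4l had 44.9, 46.0 and 45.8 CPM in cKO, against 75.6, 75.03 and 73.2 CPM in WT (edgeR adjusted p = 1.5e-05, log2 fold change -0.71 with SE 0.0563). Rps4x had 134, 139 and 134 CPM in cKO and 132, 140.2 and 138 CPM in WT, with a log2 fold change of -0.01 (edgeR adjusted p = 0.938). The log2 ratio of the pair was -1.57 ± 0.03 in cKO and -0.87 ± 0.06 in WT (SD, n = 3 each), with a permutation p of 0.1 (exact, two-sided; adjusted 0.2).

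The other 5 pairs gave smaller differences. The ratio of Rpl22l1 to Rpl22, RNA-binding paralogues of the large subunit, was -2.80 ± 0.04 in cKO and -2.89 ± 0.04 in WT (SD, n = 3 each), a difference of 0.09 with groups that did not overlap (exact permutation p = 0.1, adjusted 0.2). The differences were 0.16 for Rpl7l1 to Rpl7 (p = 0.3, exact permutation test), -0.12 for Rps27l to Rps27 (p = 0.5), -0.06 for Rpl36al to Rpl36a (p = 0.8) and -0.03 for Rpl3l to Rpl3 (p = 0.9), with overlapping groups in each. Rpl36al, an autosomal relative of the X-linked Rpl36a, had 3.85, 4.30 and 6.45 CPM in cKO and 4.12, 4.49 and 5.47 CPM in WT. Of the 7 paralogues among the members, Rpl39l and Rpl10l were called in the fit across all genes and the other 5 were not.

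Rpl3l, the muscle paralogue, was barely detected, at 0.724, 0.292 and 0.315 CPM in cKO and 0.262, 0.437 and 0.642 CPM in WT. Those are 10 reads in the lowest library, and the SE of its log2 fold change was 0.531. Rps27l, a p53-responsive relative of Rps27, had 87.9, 75.5 and 66.9 CPM in cKO and 75.1, 72.2 and 78.1 CPM in WT. For Rpl3l no difference could be detected at this depth. Rps27l had at least 2308 reads in each library and was not called (log2 fold change 0.03, SE 0.0859, edgeR adjusted p = 0.884).

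**Figure D3:**
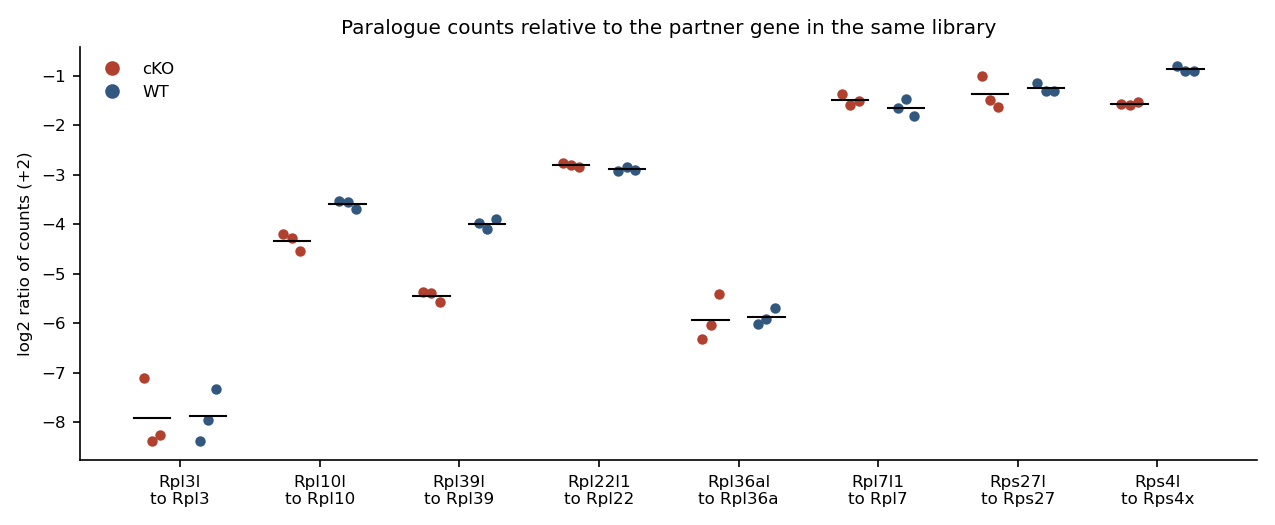
Log2 ratio of a paralogue's counts to its partner's in the same library, with 2 counts added to each (y axis), for 8 pairs; cKO in red on the left and WT in blue on the right of each pair, lines at the means. The ratios for Rpl10l (means -4.34 in cKO and -3.59 in WT), Rpl39l (-5.44 in cKO and -3.99 in WT) and Rps4l (-1.57 in cKO and -0.87 in WT) are lower in every cKO library than in any WT library.

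Transcripts of germ cells differed between the same libraries. Of 30 germ cell markers, 21 were lower, 0 were higher and 9 did not pass the test (edgeR, adjusted p under 0.05), and their summed level was 1047 to 1145 CPM in cKO against 1840 to 1906 CPM in WT. Their median log2 fold change was -0.73, and all 30 had enough counts to be tested. The 14 Sertoli cell markers, 4 of which were higher and 2 lower, summed to 4907 to 5704 CPM in cKO and 4848 to 4872 CPM in WT. Of the 8 Leydig cell markers 3 were higher, at 996 to 1108 CPM in cKO and 908 to 927 CPM in WT, and of the 10 macrophage markers 4 were higher, at 129.7 to 132 CPM in cKO and 97.6 to 107 CPM in WT. Of the 6 endothelial markers 1 was higher, with sums of 616 to 677 CPM in cKO and 581 to 597 CPM in WT. Neither the 6 peritubular myoid markers (1407 to 1892 CPM in cKO, 1519 to 1582 CPM in WT) nor the 5 tested of 7 red blood cell markers (29.1 to 40.2 CPM in cKO, 26.0 to 48.8 CPM in WT) included a called gene. The shares called were 70% of the germ cell, 42.9% of the Sertoli and 37.5% of the Leydig markers. They were 40% of the macrophage and 16.7% of the endothelial markers, beside 8.34% of all genes tested. All these lists were chosen with earlier results of these data known, so the calls cannot serve as an independent measure of cell content. The part of these cell populations in the values of Rpl39l, Rpl10l, Rps4l or any other gene was not tested.

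Rps15a changed most among the small subunit genes. It encodes a protein that binds 18S rRNA, lies on chromosome 7 (118104372 to 118116188, GRCm38, minus strand) and had 111, 106 and 102 CPM in cKO, against 134, 146 and 134 CPM in WT. The libraries did not overlap (edgeR adjusted p = 0.00179, log2 fold change -0.38 with SE 0.0571), and the call held in each of the 15 other settings, as it did for Rpl29, Rpl39l and Rpl10l. Copies of Rps15a moved in both directions. Rps15a-ps4 had 12.9, 16.0 and 19.5 CPM in cKO and 0.904, 0.483 and 0.586 CPM in WT (log2 fold change 4.61, edgeR adjusted p = 2.2e-07), a gap between groups wider than any spread within them. Rps15a-ps6, Rps15a-ps8 and Gm26983 were lower, with log2 fold changes of -1.28, -1.23 and -1.25. These copies were picked after their values were seen. With the 9 copies in the table added, Rps15a totalled 138, 132 and 133 plain CPM in cKO, against 161, 169.6 and 157 in WT (log2 ratio -0.27).

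Rpl6, a large subunit gene on chromosome 5, was lower too, with 169.6, 169 and 165 CPM in cKO and 245, 195 and 189 CPM in WT. The groups did not overlap, WT replicate 1 stood above the others, and the log2 fold change of -0.32 (SE 0.0841, edgeR adjusted p = 0.0356) became -0.19 without it (adjusted p = 0.0947). The Rpl6 call was also lost without WT replicate 2 (adjusted p = 0.0729), cKO replicate 2 (adjusted p = 0.115) or cKO replicate 3 (adjusted p = 0.0698).

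Rpl30, Rpl10a and Rpl36 joined Rpl39 on the higher side, each by less than 0.4 on the log2 scale. Rpl30 (chromosome 15), whose yeast counterpart also binds and restrains its own transcript, had 183, 175 and 189.8 CPM in cKO, against 156, 141 and 145 CPM in WT. The groups were apart (edgeR adjusted p = 0.0063, log2 fold change 0.31 with SE 0.0568), though the adjusted p was 0.0618 without WT replicate 2. Rpl10a (chromosome 17), the protein of the mobile L1 stalk, had 397, 391 and 421 CPM in cKO and 314, 368 and 329 CPM in WT, with no overlap. Its log2 fold change was 0.26 (SE 0.0617, edgeR adjusted p = 0.0223), and the call was lost with adjusted p of 0.0641 without cKO replicate 2, 0.0625 without cKO replicate 3, 0.116 without WT replicate 1 and 0.112 without WT replicate 3. Rpl36 (chromosome 17), one of the most abundant members per length, had 361, 368 and 365 CPM in cKO and 289.6, 309 and 325 CPM in WT. The cKO libraries were tightly grouped above all WT libraries (edgeR adjusted p = 0.013, log2 fold change 0.24 with SE 0.0521). Without cKO replicate 2, WT replicate 1 or WT replicate 2 the adjusted p of Rpl36 was 0.0678, 0.0707 and 0.0793.

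Of the members that missed the threshold, 4 had the lowest p. Rpl21, a protein of the large subunit, had 87.6, 81.6 and 93.4 CPM in cKO and 45.5, 58.1 and 80.8 CPM in WT. The groups did not overlap, but WT libraries were widely spread, and the largest positive change of the family, 0.51 (SE 0.152), stopped at an adjusted p of 0.0596 (edgeR). Rpl21 was called in some other fits, among them limma-voom (adjusted p = 0.0321), without a filter (3.41e-09), without cKO replicate 1 (0.00921) and without WT replicate 3 (0.00375). Rpl37a had 215, 209 and 197 CPM in cKO and 169.7, 181 and 190.4 CPM in WT (log2 fold change 0.20, edgeR adjusted p = 0.0525). Rpl37a was called with DESeq2 (adjusted p = 0.0231), limma-voom (0.0421), the robust fit (0.0394) and the 1 CPM filter (0.0456), and without cKO replicate 1 (0.0295) or cKO replicate 3 (0.039). Rplp0 and Rpl31 followed with log2 fold changes of -0.17 (adjusted p = 0.0984) and 0.15 (adjusted p = 0.101).

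The proteins of the flexible stalk that recruits translation factors gave no call in the main fit. Rplp0, the base of the stalk, had 355, 368 and 348 CPM in cKO and 436, 386 and 382 CPM in WT. Rplp2 had 326, 349 and 310.2 CPM in cKO and 448, 345 and 353 CPM in WT (log2 fold change -0.22, edgeR adjusted p = 0.16), and Rplp1 had a log2 fold change of -0.02 (adjusted p = 0.944). WT replicate 1 was the highest library for both Rplp0 and Rplp2. In other fits, Rplp0 was called without cKO replicate 1 (edgeR adjusted p = 0.0369) and Rplp2 without a filter on low counts. Rpsa, the small subunit protein also described as a laminin receptor, had 128, 151 and 179 CPM in cKO and 159, 147 and 154 CPM in WT. Rps6, the substrate of the S6 kinases, had 209, 216 and 231 CPM in cKO and 213, 238 and 236 CPM in WT. Rps27a, made as a fusion with ubiquitin, had 27.5, 39.5 and 32.9 CPM in cKO and 36.4, 32.3 and 35.9 CPM in WT. In each of these last 3 the groups overlapped, and the log2 fold changes were -0.01 for Rpsa, -0.07 for Rps6 and -0.06 for Rps27a.

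Levels within the family differed widely. Mean levels ran from 0.445 to 1787 CPM with a median of 183.9 CPM, 56 members were above 100 CPM and 2 were below 1 CPM. Per kilobase of gene length, Rpl4, which lines the exit tunnel, had the highest mean over all 6 libraries, at 854 ± 30.4 CPM per kilobase in cKO and 927 ± 21.5 in WT (SD, n = 3 each). Rpl36 came next (903 ± 8.23 in cKO, 762 ± 43.7 in WT), above Rpl4 in every cKO library and below it in every WT library, and then Rps15 (530.0 ± 48.5 in cKO, 550.2 ± 37.9 in WT). The lowest on this scale were Rpl3l (0.270 in cKO, 0.272 in WT), Rpl24 (0.840 in cKO, 0.849 in WT) and Rpl36al (3.596 in cKO, 3.467 in WT). The exons of Rpl24 lie under the gene model Gm28037 on the same strand for 47.0% of their bases, and reads over more than 1 gene were left uncounted. Between libraries of a genotype, the median coefficient of variation of a member was 6.61% in cKO and 5.88% in WT, beside 4.52% in cKO and 2.82% in WT for the other 1078 protein-coding genes of at least the median member's abundance. In 29 members the introns or exons hold annotated small nucleolar RNAs, 56 in all.

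Copies elsewhere in the genome are common in the family. Of the 83 members, 80 share at least 1 stretch of 50 transcript bases with another gene, 52 share more than 50% of them and 11 less than 20%. Pseudogenes sharing coding stretches were most numerous for Rpl7a (120), followed by Rpl29 and Rpl21 (81 each), Rps2 (71) and Rpl17 (50). The largest shares of shared stretches belonged to Rps27 (98.7%), Rpl35 (95.1%), Rpl5 (93.8%) and Rps10 (92.4%). None of these 4 was called, with log2 fold changes of 0.15, 0.08, -0.02 and 0.10. Among the 11 members with few shared stretches, 1 was higher (Rpl39) and 2 were lower (Rpl39l and Rpl10l), 27.3% in all. The share was 10% of the 20 members in between (0 higher, 2 lower) and 9.62% of the 52 with many (3 higher, 2 lower). Over all genes tested it was 8.34%. The 11 include the paralogues Rpl39l, Rpl10l, Rpl3l and Rpl7l1, so few shared stretches and being a paralogue go partly together. The median log2 fold change was -0.03 among these 11 and 0.07 among the 52. Whether the sets differ was not tested.

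Reads of the copies were also added to those of the parent genes. Over the 83 genes the median log2 ratio of the summed reads was 0.04. For Rpl21 the parent gene averaged 86.8 plain CPM in cKO and 61.8 in WT, while its 79 copies summed to 58.6 in cKO and 59.6 in WT. The copies' total overlapped between groups, and with them added the log2 ratio of Rpl21 was 0.26. Rpl6 and its copies gave -0.27, with copies at 60.2 in cKO and 63.2 in WT. These sums have no test of their own.

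**Figure D4:**
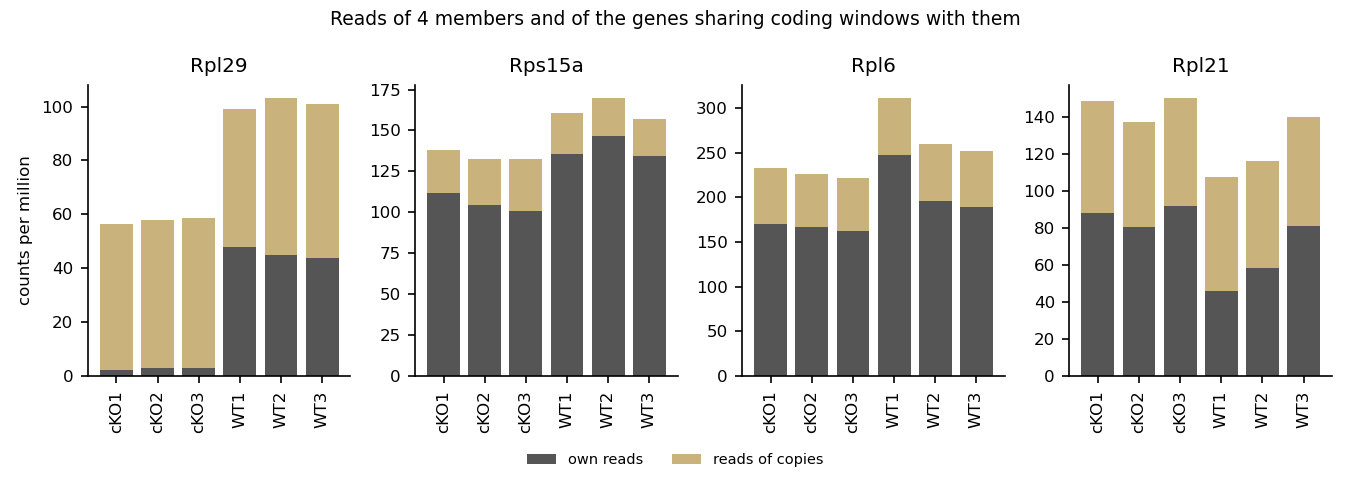
The y axis gives plain CPM (counts over the unscaled library total) for Rpl29, Rps15a, Rpl6 and Rpl21 in each library, cKO left of WT. Dark bars are the gene's own reads and light bars, stacked on them, those of genes sharing 50-base coding stretches with it. The dark Rpl29 bars are at 2.14 to 3.03 in cKO, against 43.7 to 47.9 in WT, under light parts of 51.3 to 58.1 in all 6 libraries.

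Some ribosomal proteins carry names outside the naming rule. Of 5 such genes 4 were tested, and 0 were higher and 1 lower in cKO (25%, beside 8.34% of all genes tested). Rack1, a scaffold on the small subunit, had 718, 744 and 723 CPM in cKO and 598, 687 and 699.6 CPM in WT (log2 fold change 0.14, edgeR adjusted p = 0.183). Rps3a1, a small subunit protein, and Fau, made as a fusion of a ubiquitin-like protein with a small subunit protein, had log2 fold changes of -0.01 and -0.10 and were not called.

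Genes that work beside the ribosome were looked at in the same fit. Of 16 further TOP genes of translation, 1 was higher and 1 lower (12.5%, beside 8.34% of all genes tested), with a median log2 fold change of 0.03. Gas5, a noncoding host of small nucleolar RNAs, had 139, 116 and 107 CPM in cKO and 98.7, 101 and 94.96 CPM in WT (log2 fold change 0.29, edgeR adjusted p = 0.0497). Pabpc1, the cytoplasmic poly(A)-binding protein, had 1627, 1727 and 1710.0 CPM in cKO and 1906, 1873 and 1890.1 CPM in WT (log2 fold change -0.16, edgeR adjusted p = 0.0369). The groups of Gas5 and Pabpc1 did not overlap, and neither call held without cKO replicate 2 or any 1 of the WT replicates, where the adjusted p lay between 0.0811 and 0.178. Gas5 was also lost under library size alone (adjusted p = 0.0714), under DESeq2 size factors (0.0516) and with the filter of 1 CPM (0.0507).

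Of 16 regulators of TOP mRNAs, 0 were higher and 2 lower (12.5%), with a median of -0.07. Larp1b, a relative of the TOP-binding repressor Larp1, had 29.1, 23.8 and 24.4 CPM in cKO and 41.4, 32.9 and 35.0 CPM in WT (log2 fold change -0.50, edgeR adjusted p = 0.0107). Larp4, which binds poly(A) and stabilises mRNAs, had 116, 119 and 113 CPM in cKO and 127, 136 and 135 CPM in WT (log2 fold change -0.19, edgeR adjusted p = 0.043). The groups did not overlap in either gene, and the Larp1b call was lost without cKO replicate 2 (adjusted p = 0.0641) or WT replicate 1 (adjusted p = 0.0665). The call for Larp4 was lost without any 1 of the libraries except cKO replicate 1 (adjusted p between 0.0704 and 0.208) and without a filter on low counts (0.0642). Of 77 tested proteins of the mitochondrial ribosome, 0 were higher and 2 lower, Mrpl16 (log2 fold change -0.30, edgeR adjusted p = 0.0493) and Mrps5 (-0.26, adjusted p = 0.0498). They are 2.6% of that list, whose median was -0.001. Both calls were lost without cKO replicate 2 or any 1 of the WT replicates; Mrpl16 was also lost without cKO replicate 3.

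The targeted gene gives no check of the labels. Dis3l2 had 30.6, 30.96 and 33.6 CPM in cKO and 32.8, 30.97 and 32.1 CPM in WT, overlapping groups with a log2 fold change of -0.01 (edgeR adjusted p = 0.956). Its count covers the whole gene, excised part or not, and every cell of the testis.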

How the data were processed

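RNA was sequenced from postnatal day 4 testis, 3 samples labelled cKO and 3 labelled WT. Per the labels' protocols, libraries were primed with random and poly(T) primers, strand-selected and depleted of targeted transcripts; the molecule field instead says polyA RNA. The deposited values are raw counts per gene. Per the file headers they come from featureCounts 1.6.4 on GENCODE M18, stranded, without reads that map to several places or lie over several genes, and with mates not counted as pairs. The submitters' processing notes name cutadapt, HISAT2 and GRCm38.p5, with no tool versions. Discarding reads that map to several places lowers the counts of genes with near-identical copies.

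Gene names and types came from GENCODE M21, which named 54165 of the 54232 genes, and 0 columns were left without a sample. Genes were kept with filterByExpr (minimum count 10, total 15), scaled by TMM and tested with the edgeR 4.0.16 quasi-likelihood test in R 4.3.3 (two-sided, group the only term), with Benjamini-Hochberg adjustment over the 20153 kept. A gene is called where this adjusted p is below 0.05. Positive log2 fold changes mean higher in cKO. Paralogue ratios used counts plus 2. Shared stretches are 50-base windows found exactly in M21 transcripts of other genes. The procedure was tested on simulated counts. Alternatives were 2 other scalings and 1 without ribosomal, mitochondrial and haemoglobin genes, 2 other filters, DESeq2 1.42.0, limma-voom (limma 3.58.1), a robust edgeR fit, a block on the replicate number, single libraries left out, 0.5 counts added to the ratios, and members split by shared stretches and by length. Members and lists were chosen with earlier results of these data known. Genes named are the paralogue pairs, the stalk and related members, called members, the 4 uncalled with the lowest p, the extremes per length and in shared stretches, called genes of the other lists, and Dis3l2; neighbours and copies were added after values were seen. Some named genes are not reported here, though they stay in the counts. Plots used matplotlib 3.10.9 under Python 3.11.15.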

Additional observations from a re-analysis of the deposited data

How the results depend on the processing

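Of the 10 called members, Rpl29, Rpl39l, Rpl10l and Rps15a were called in all 15 alternative fits, and the other 6 were each lost when 1 or more single libraries were left out; 54 members were called in no fit and 19 of the uncalled in at least 1. Members called numbered 4 higher and 6 lower (12%, beside 8.34% of all genes tested). Without a filter on low counts they numbered 6 higher and 10 lower (19.3%, beside 4.49% of the 43855 genes then tested). Leaving out 1 library gave 1 to 14 members higher and 4 to 9 lower, and 236 to 1670 genes higher and 387 to 1705 lower. The highest of each count came without cKO replicate 1, the shallowest library. Its log2 CPM also correlated less with cKO replicates 2 and 3 (0.985 and 0.984) than theirs did with each other (0.990). Why the counts rose without it was not tested. The member median ran from 0.02 to 0.06 over the other fits. With the 11 members sharing under 20% of their 50-base stretches it was -0.0307, and -0.1175 for those of the large subunit. In that split the fit was unchanged and only the genes entering the median differed, Rpl39l and Rpl10l being among those kept. That split replaced a planned one on genome windows, which was not run because no genome sequence was at hand, and was chosen after seeing the data.

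With the replicate number as a block, genes called higher numbered 740, genes called lower 1058, and members 5 higher and 7 lower. Those members are 14.5% of the family, beside 8.92% of all genes tested in that fit. Deviations of same-numbered samples correlated at 0.031, 0.013 and 0.065, and those of unlike-numbered samples at -0.054 to 0.023. With 3 samples a group these values cannot show whether same-numbered samples share more than a number. Under the block Rpl21 (adjusted p = 0.0157) and Rpl27 (0.0138) were called, and the calls of Mrpl16 (0.0562) and Mrps5 (0.0534) were lost. The block and the added count of 0.5 changed the direction of no paralogue ratio.

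Values that changed sign when 1 library was left out ranged as follows: Rps27l -0.0800 to 0.12, Rplp1 -0.0854 to 0.0868, Rpsa -0.14 to 0.10, Rps27a -0.21 to 0.0513, Rps15 -0.12 to 0.0116, Dis3l2 -0.0578 to 0.0126, Rpl3l -0.54 to 0.31, Rpl36al -0.20 to 0.20, Rpl10 -0.0353 to 0.21, Rpl24 -0.16 to 0.14, Rpl3 -0.0204 to 0.0862, Rps4x -0.0353 to 0.00996 and Rpl5 -0.0411 to 0.00587. The ratio of Rpl3l to Rpl3 ranged from -0.44 to 0.24, of Rpl36al to Rpl36a from -0.31 to 0.14, and of Rps27l to Rps27 from -0.31 to 0.00626. This list covers the named genes and pairs only. Other members also changed sign over the alternative fits, among them Rpl17 (-0.0462 to 0.438) and Rpl26 (-0.118 to 0.157). The cause of these changes was not tested. That the other 73 members missed the threshold in edgeR does not show that they did not differ.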
